A study of Rattus norvegicus with 6 samples.

Results

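The genes described here encode the contractile apparatus, calcium handling and energy supply of skeletal muscle fibres, 37 genes of the 29884 in the count table, of which 36 were found by their listed symbol and Mylpf under its RefSeq symbol Myl11. They comprise 13 genes of fast fibres, 10 genes of slow fibres and 14 genes shared by both fibre types, and they were selected on their counts in these same 6 libraries, so their levels and fold changes are given as a description with nothing tested on them. The tissue was the rat trigeminal ganglion, where the neurons that sense touch and pain in the face have their cell bodies. All 6 samples were labelled wild type and had chronic constriction of the infraorbital nerve (CCI-ION), a model of trigeminal neuralgia; 3 injury samples had the constriction alone, at labelled days 14, 15 and 16, and 3 conduit samples were also treated with SFM-Gel @NGC-Light, a light-driven gel in a nerve conduit, at labelled days 17, 18 and 19. The labels give no unconstricted group, strain, age or sex, and do not state that each sample is a separate animal. They also name 3 batches: batch 1 held injury samples only (1 and 2), batch 3 held conduit samples only (2 and 3), and batch 2 held 1 of each, injury sample 3 with conduit sample 1.

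Skeletal muscle fibres contract when calcium released from the sarcoplasmic reticulum binds troponin on the thin actin filaments and lets the heads of myosin filaments pull on them. Fast fibres contract quickly and draw much of their energy from glycogen and creatine phosphate, whereas slow fibres resist fatigue, and many proteins of the sarcomere exist in a fast and a slow form made from separate genes. The trigeminal ganglion itself holds neurons, glia, vessels and connective tissue but no muscle fibres, while the jaw muscles lie close to the skull base. In bulk RNA fewer cells of a type and less RNA per cell cannot be told apart.

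The libraries held 40.2 M to 41.9 M counts and 19894 to 21061 detected genes, so read counts can be set side by side between libraries. Conduit sample 2 and injury sample 1 stood apart in the muscle genes. Markers of sensory neurons were abundant in all 6 libraries, with 49170 to 77195 counts of Prph, the intermediate filament peripherin. Other tissues also differed. All 7 pituitary genes were highest in injury sample 1; the growth hormone gene Gh1 had 195850 counts there and 18 to 645 in the other 5 libraries, where the hormone subunit genes Fshb and Cga had 0 to 3. The fat genes Adipoq and Plin4 were highest in conduit sample 2, at 310 and 863 counts, but Adipoq also had 166 counts in each of injury samples 2 and 3, whose muscle genes were low. Over the whole fat list of 8 genes the summed level was 27.9 to 49.4 CPM (counts divided by library size, scaled by the trimmed mean of M-values, TMM) in the injury libraries and 21.8 to 73.8 CPM in the conduit libraries, and 4 of 8 were highest in conduit sample 2. The part of pituitary and fat tissue in the muscle values was not tested.

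The muscle genes made up 1.66% of all counts in conduit sample 2 (95% Wilson interval 1.65% to 1.66%) and 0.136% in injury sample 1 (0.135% to 0.138%). They made up 0.0441% to 0.0519% in the other 4 libraries. These intervals, like the others here, cover counting error only. Most of the reads in those 4 libraries came from 1 gene, Atp2a2, a calcium pump that most cell types express. Without it the muscle genes held 660235 counts in conduit sample 2, 41409 in injury sample 1 and 4210 to 5415 in the other 4. Of the 37 genes 30 were highest in conduit sample 2 and 6 in injury sample 1, ranked by counts, whereas conduit sample 2 was highest for 8.89% of the 16478 genes that entered the test and injury sample 1 for 16.45%. A tie went to the library listed first, which touched 228 of those genes and, of the 37, Myoz2, at 39 counts in both conduit sample 2 and conduit sample 3. Conduit sample 2 exceeded the highest of the other 4 libraries more than 10 times for 28 of the 37 genes, and injury sample 1 did so for 17. Over all 16478 genes that entered the test, conduit sample 2 did so for 74, of which 24 were among the 37, and injury sample 1 for 25.

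**Figure D1:**
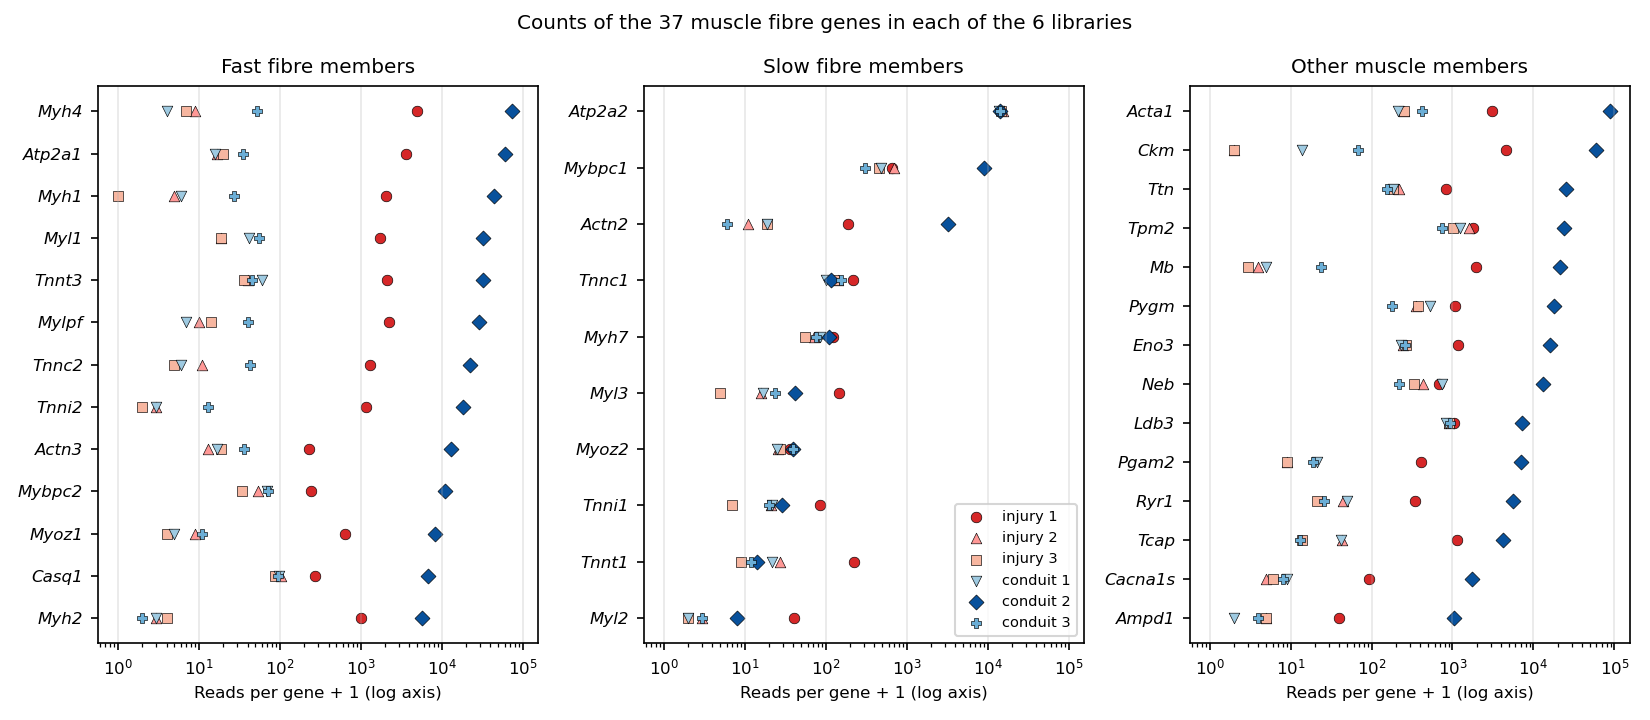
Reads per gene plus 1 on a log axis for each of the 37 muscle fibre genes (rows, ordered by conduit sample 2) in each of the 6 libraries (symbols), in panels for fast, slow and shared genes. All 13 fast genes are highest in conduit sample 2 and second in injury sample 1, while most slow genes are not.

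The heads of the thick filament are made by myosin heavy chain genes, of which Myh4, Myh1 and Myh2 mark fast fibres (types IIB, IIX and IIA) and Myh7 marks slow fibres and the heart ventricle. Myh4 had 4932, 8 and 6 counts in injury samples 1, 2 and 3 and 3, 72871 and 51 counts in conduit samples 1, 2 and 3. Myh1 had 2033, 4 and 0 counts in the injury samples and 5, 43780 and 26 in the conduit samples. Myh2 had 1005, 2 and 3 counts in injury and 2, 5683 and 1 in conduit. All 3 fast genes were high in the same libraries, 1 of each group, and the ranges of the groups overlapped. Myh7 had 122, 71 and 55 counts in injury and 83, 109 and 74 in conduit. This range was narrow, with injury sample 1 and conduit sample 2 only a little above the other 4 libraries. Fast myosin genes share sequence, so reads of one may be assigned to another, which leaves the split among Myh1, Myh2 and Myh4 uncertain.

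The mix of myosin genes differed between the libraries. In conduit sample 2, with 122443 counts over the 4 genes, Myh4 held 59.5% (95% Wilson interval 59.2% to 59.8%), Myh1 35.8% (35.5% to 36.0%), Myh2 4.64% (4.52% to 4.76%) and Myh7 0.089% (0.0738% to 0.107%). In injury sample 1, with 8092 counts, Myh4 held 60.9% (59.9% to 62.0%), Myh1 25.1% (24.2% to 26.1%), Myh2 12.4% (11.7% to 13.2%) and Myh7 1.51% (1.26% to 1.797%). The share of Myh4 was close in the pair, whereas Myh2 and Myh7 held larger shares in injury sample 1. For Myh7 the counts were alike, 122 in injury sample 1 and 109 in conduit sample 2, against 55 to 83 in the other 4 libraries. Its larger share thus went with fewer fast counts, and no level seen in the other libraries was taken off. Shares per FPKM (counts divided by gene length and library size, as deposited) were close to these, with Myh2 at 4.61% in conduit sample 2 and 12.3% in injury sample 1. In injury samples 2 and 3 and conduit sample 1, with only 64 to 93 counts over the 4 genes, Myh7 held 83.5% to 89.2%. Conduit sample 3, with 152 counts, lay between, with Myh7 at 48.7% (40.9% to 56.6%) and Myh4 at 33.6% (26.5% to 41.4%). These intervals compare single libraries and not the conditions.

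**Figure D2:**
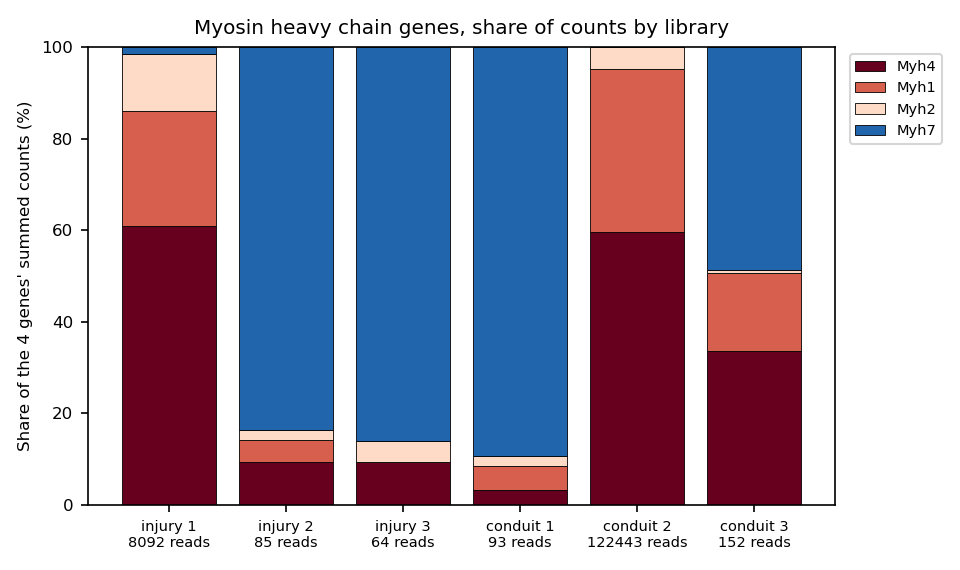
Share in percent of the summed counts of 4 myosin heavy chain genes held by each gene, by library, with the summed counts under each bar. Fast genes hold nearly all counts in conduit sample 2 and injury sample 1, and Myh7 holds 48.7% to 89.2% in the other 4 libraries, on 64 to 152 counts.

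The fast myosin genes form 1 cluster: in RefSeq's gene order of the rat build GRCr8 they follow one another on chromosome 10 as Myh3, Myh2, Myh1, Myh4, Myh8 and Myh13, with 0 other protein-coding genes between neighbours. The genes for fast troponin I and T, Tnni2 and Tnnt3, lie on chromosome 1 with 5 protein-coding genes between them. To set promoters of genes that followed the fast pattern beside that of a slow gene that did not, the 250 bases before the start of 4 genes are given, taken from RefSeq (build GRCr8, a later build than the mRatBN7.2 of the counts), 5′ to 3′ on the strand of the gene. They are the fast genes Myh4 (chr10:52421898-52422147, plus strand) and Myh1 (chr10:52384662-52384911, plus strand), the thin-filament gene Acta1 (chr19:68784195-68784444, minus strand) and the slow gene Tnnt1 (chr1:78348785-78349034, plus strand). Capitals mark the TATA box TATAAA on the gene's strand and, on either strand, the E-box CANNTG bound by myogenic factors, the MEF2 site and the CArG box bound by serum response factor.
Myh4: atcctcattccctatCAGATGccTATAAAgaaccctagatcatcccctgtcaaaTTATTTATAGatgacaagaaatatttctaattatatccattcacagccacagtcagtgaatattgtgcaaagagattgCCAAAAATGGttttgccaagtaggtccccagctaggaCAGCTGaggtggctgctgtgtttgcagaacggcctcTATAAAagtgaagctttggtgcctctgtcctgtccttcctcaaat
Myh1: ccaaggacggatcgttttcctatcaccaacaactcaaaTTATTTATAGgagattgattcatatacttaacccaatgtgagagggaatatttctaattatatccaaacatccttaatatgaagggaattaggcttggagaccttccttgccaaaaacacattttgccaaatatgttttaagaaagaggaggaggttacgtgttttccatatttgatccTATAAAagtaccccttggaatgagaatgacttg
Acta1: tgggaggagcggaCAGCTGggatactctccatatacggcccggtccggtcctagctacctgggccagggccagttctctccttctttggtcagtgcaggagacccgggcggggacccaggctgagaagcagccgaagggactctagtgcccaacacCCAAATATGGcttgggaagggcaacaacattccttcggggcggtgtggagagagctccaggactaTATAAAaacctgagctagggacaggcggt
Tnnt1: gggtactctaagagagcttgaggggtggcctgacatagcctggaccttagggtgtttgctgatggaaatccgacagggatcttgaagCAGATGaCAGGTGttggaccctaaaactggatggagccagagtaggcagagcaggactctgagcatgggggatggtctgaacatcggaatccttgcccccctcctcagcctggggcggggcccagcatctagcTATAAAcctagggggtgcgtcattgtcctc
Myh4 and Myh1 each held a MEF2 site, at 196 and 212 bases before the start, and a TATA box at 45 and 33 bases, with a further TATAAA in Myh4 at 227 bases. A CArG box stood at 118 bases in Myh4 and at 94 bases in Acta1. The TATA box stood at 29 bases in Acta1 and at 30 bases in Tnnt1, whose other capitals are E-boxes.

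Myh1, Myh2 and Myh4 shared a run of 20 bases, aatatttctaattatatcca, at 166 bases before the start in Myh1 and 177 in Myh4, which 3 of 27457 rat promoters of this length held. Promoters were matched for 33 of the 37 genes. A MEF2 site was found in 6 of the 33 (18.2%) against 3.07% of all 27457 promoters, a CArG box in 4 (12.1%) against 412 of the 27457, TATAAA in 10 (30.3%) against 8.38% and the M-CAT motif CATTCC in 8 (24.2%) against 11.8%. The E-box, which these letters make common, was in 28 (84.8%) against 65.2%. By fibre type, MEF2 sites were in 3 of 12 fast and 1 of 8 slow promoters. MEF2 and TATA matches can overlap, as in Ampd1. A match is a description of the letters and shows no binding, and the absence of one says only that the letters are not in this window.

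Light chains stabilise and tune the myosin head. Mylpf, the regulatory light chain of fast fibres, had 2239, 9 and 13 counts in injury and 6, 28911 and 39 in conduit. Myl1, the essential light chain of fast fibres, had 1721, 18 and 18 counts in injury and 41, 32521 and 54 in conduit. Both fast light chains were thus highest in conduit sample 2 and next in injury sample 1. Myl2, the regulatory light chain of slow fibres and of the ventricle, had 40, 2 and 1 counts in injury and 1, 7 and 2 in conduit, and its slow partner Myl3 had 145, 15 and 4 counts in injury and 16, 41 and 23 in conduit. The slow light chains were therefore highest in injury sample 1, the library with fewer fast-fibre reads. Mybpc2 and Mybpc1 encode the fast and slow forms of myosin-binding protein C, which links thick filaments; rodent fast fibres also express Mybpc1. Mybpc2 had 240, 53 and 33 counts in injury and 68, 10886 and 71 in conduit. Mybpc1 had 659, 691 and 451 counts in injury and 481, 9093 and 303 in conduit. Injury sample 1 was thus close to injury sample 2, lower in counts and at 16.4 against 16.3 CPM.

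The troponin complex on the thin filament has a calcium-binding subunit C, an inhibitory subunit I and a tropomyosin-binding subunit T. The fast genes Tnnc2, Tnni2 and Tnnt3 had 1294, 1148 and 2082 counts in injury sample 1 and 22119, 18381 and 32259 in conduit sample 2, against 4 to 42, 1 to 12 and 35 to 59 in the other 4 libraries. The slow form of subunit T moved differently. Tnnt1 had 222, 26 and 8 counts in injury and 21, 13 and 11 in conduit, so conduit sample 2 lay within the other 4 libraries and injury sample 1 lay above all. Tnni1 had 85, 20 and 6 counts in injury and 21, 28 and 19 in conduit. Tnnc1, also the troponin C of the heart, had 216, 143 and 127 counts in injury and 99, 114 and 156 in conduit. All 3 slow troponin genes were highest in injury sample 1.

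Actin filaments are made from Acta1, skeletal alpha-actin, and are anchored at the Z-disc. Acta1 had 3110, 251 and 254 counts in injury and 214, 87514 and 418 in conduit, and at 1479 FPKM it reached the highest level per length of the 37 genes in conduit sample 2. Its close relative Actc1, the cardiac alpha-actin gene, had 208 counts in injury sample 1 and 5917 in conduit sample 2 against 1 or 2 in the others; the actin genes are alike in sequence, so reads may be divided between them. Actn3, the fast alpha-actinin of the Z-disc, had 231, 12 and 18 counts in injury and 16, 13203 and 35 in conduit. Actn2, listed with the slow genes but made in all fibre types, had 187, 10 and 18 counts in injury and 18, 3264 and 5 in conduit, the pattern of the fast genes. Myoz1, a Z-disc protein of fast fibres, had 646, 8 and 3 counts in injury and 4, 8186 and 10 in conduit, whereas its slow partner Myoz2 had 24 to 39 counts in all 6 libraries. Tcap, the titin cap, had 1142, 42 and 13 counts in injury and 41, 4177 and 12 in conduit, so that among the shared genes injury sample 1 came closest to conduit sample 2 for Tcap. The giant proteins titin (Ttn) and nebulin (Neb), the rulers of the thick and thin filaments, had 25568 and 12997 counts in conduit sample 2. Ttn had 823 counts in injury sample 1 and 156 to 217 in the other 4 libraries, while for Neb injury sample 1, at 683 counts, lay within the 215 to 751 of the others. Tpm2 (a tropomyosin) and Ldb3 (a Z-disc protein) are also made outside skeletal muscle, and they had 745 to 1611 and 837 to 942 counts in the 4 low libraries, 1769 and 1038 in injury sample 1 and 23523 and 7307 in conduit sample 2.

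Calcium release and uptake couple excitation to contraction. Cacna1s, the voltage sensor of the fibre membrane, had 91, 4 and 5 counts in injury and 8, 1739 and 7 in conduit. Ryr1, the release channel it opens, had 340, 43 and 20 counts in injury and 49, 5532 and 25 in conduit. Both followed the fast genes. Casq1 stores calcium in the sarcoplasmic reticulum, and it had 268, 103 and 87 counts in injury and 97, 6852 and 93 in conduit. Atp2a1, the pump that refills the store in fast fibres, had 3573, 16 and 19 counts in injury and 15, 60954 and 34 in conduit. Atp2a2, the pump of slow fibres, heart and most other cells, had 13959 to 15451 counts in all 6 libraries and did not follow the muscle pattern.

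Energy genes followed the fast genes. Ckm, muscle creatine kinase, had 4633, 1 and 1 counts in injury and 13, 59379 and 68 in conduit. Mb, the oxygen-binding protein myoglobin, had 1971, 3 and 2 counts in injury and 4, 21098 and 23 in conduit. For both, conduit sample 3 was the highest of the 4 low libraries. The glycolytic and glycogen-breaking enzymes Eno3, Pgam2 and Pygm had 16100, 6943 and 17998 counts in conduit sample 2 and 1173, 402 and 1072 in injury sample 1. In the other 4 libraries Eno3 had 233 to 267, Pgam2 8 to 20 and Pygm 176 to 525 counts, so Eno3 and Pygm had a level there that the myosin genes lacked. Ampd1, muscle AMP deaminase, had 39, 4 and 4 counts in injury and 1, 1046 and 3 in conduit.

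The ratio between conduit sample 2 and injury sample 1 separated the slow genes from the rest. On the TMM-scaled CPM level it had a median of 17.2 over the 13 fast genes, with a range of 5.71 (Myh2) to 57.7 (Actn3), and a median of 16.7 over the 14 shared genes, from 3.69 (Tcap) to 31.4 (Ttn). Over the 10 slow genes the median was 0.718, and 6 of the 10 were lower in conduit sample 2. The lowest were Tnnt1 at 0.0592 (exact 95% interval 0.0310 to 0.103), Myl2 at 0.177 (0.0668 to 0.399) and Myl3 at 0.286 (0.197 to 0.406). Tnni1 at 0.333 (0.209 to 0.515) and Tnnc1 at 0.533 (0.421 to 0.672) also lay below 1, while for Myh7 at 0.902 (0.691 to 1.178) and Myoz2 at 1.13 (0.695 to 1.83) the interval included 1. The slow-listed genes Actn2 and Mybpc1, which fast fibres also express, had ratios of 17.6 and 13.9. No level seen in the other 4 libraries was taken off before these ratios. Mybpc1 and Myoz2 in injury sample 1 (659 and 35 counts) lay within those libraries (303 to 691 and 24 to 39). So did the shared gene Neb in injury sample 1, at 683 counts against 215 to 751. In conduit sample 2 the same held for Tnnc1, at 114 counts against 99 to 156, and for Tnnt1, at 13 against 8 to 26. Atp2a2 lay within the other 4 libraries in both. The ratios of such genes may not compare fibre levels. Among fast genes, Mybpc2 at 45.8 and Actn3 stood high and Myh2 stood low, and the exact intervals of Myh2 (5.34 to 6.11) and Myh4 (14.5 to 15.4) did not meet.

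**Figure D3:**
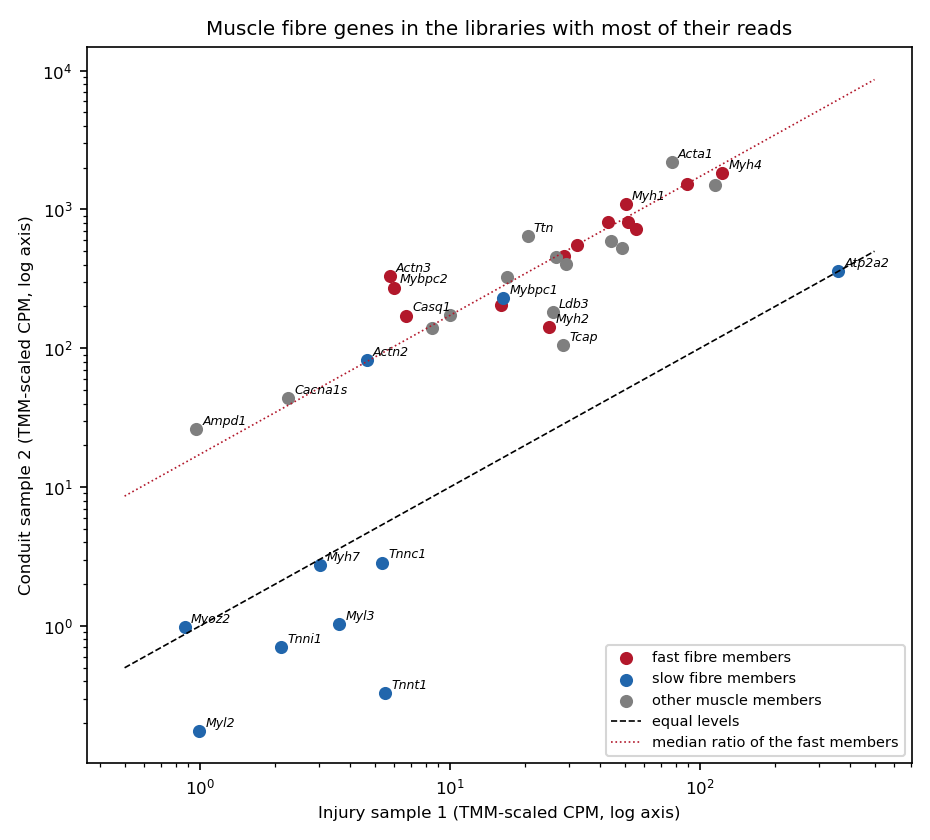
TMM-scaled CPM of the 37 genes in injury sample 1 (x, log axis) against conduit sample 2 (y, log axis), with slow genes and some others named. Fast and shared genes lie around the dotted line at the median fast ratio of 17.2, and Tnnt1, Myl2, Myl3, Tnni1 and Tnnc1 lie below the dashed line of equal levels.

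Levels of different genes can be compared per length, by the deposited FPKM. Over 9 proteins with a fast and a slow gene plus the myosin heavy chains, the fast genes summed to 4598 FPKM in conduit sample 2 and the slow genes to 155.5, a log2 ratio of fast to slow levels of 4.89. In injury sample 1 the sums were 287 and 90.1 FPKM and the log2 ratio 1.67. In the other 4 libraries fast genes summed to 2.06 to 5.96 FPKM and slow genes to 72.1 to 82.9, with log2 ratios of -5.20 to -3.60. Atp2a2 made up most of the slow sum in every library but conduit sample 2, where the slow genes without it summed to 88.6 FPKM. Most of these 88.6 FPKM came from Mybpc1 (55.8) and Actn2 (27.2), which fast fibres also express. In injury sample 1 that sum was 23.0 FPKM, with Mybpc1 at 4.03 and Actn2 at 1.55. The sums therefore do not rank the libraries by slow-fibre RNA, and no ratio without Mybpc1 and Actn2 was computed. Without the calcium pumps the log2 ratios were 5.56 in conduit sample 2, 3.51 in injury sample 1 and -2.05 to -0.34 in the others. As a median over the 9 partner pairs, with 0.1 FPKM added to each level, the log2 ratio was -1.37 to 0.26 in those 4 libraries, above 0 in conduit sample 3. The fast gene was higher than its slow partner for 9 of 9 proteins in conduit sample 2, for 7 of 9 in injury sample 1 and for 3 to 5 of 9 in the other 4 libraries. For troponin T, Tnnt3 stood at 582 FPKM and Tnnt1 at 0.338 FPKM in conduit sample 2, against 37.4 and 5.74 FPKM in injury sample 1.

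**Figure D4:**
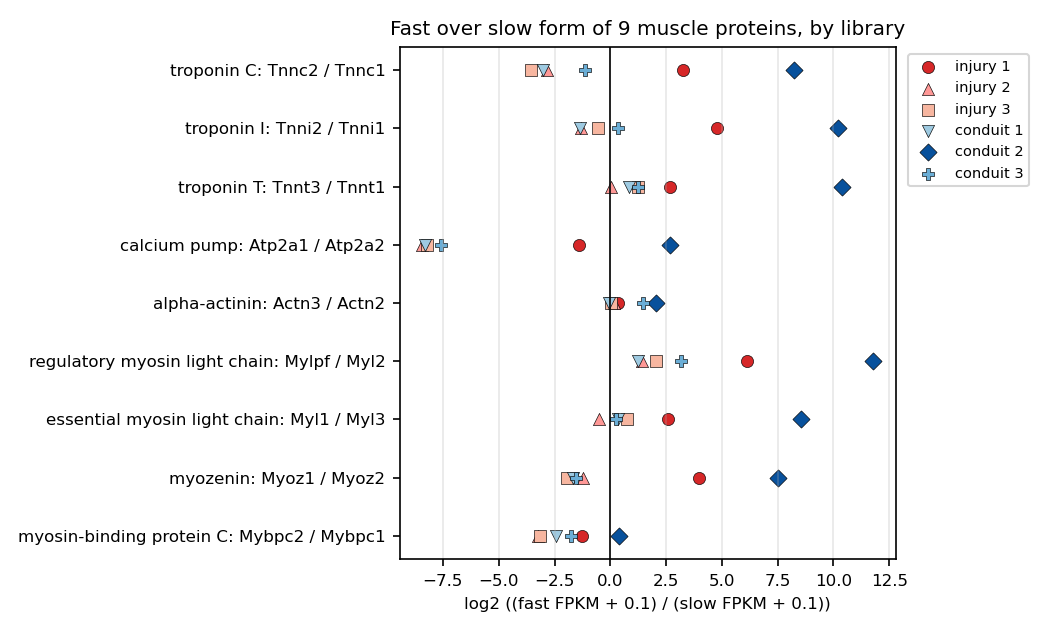
Log2 ratio of the FPKM of the fast gene over that of the slow gene (0.1 FPKM added to each) for 9 proteins, one symbol per library, with a line at equal levels. With that addition conduit sample 2 is the highest library for all 9 proteins; without it alpha-actinin is highest in conduit sample 3, at a plain ratio of 7.18 against 4.15. The conduit sample 2 median is 8.24 against 2.68 in injury sample 1.

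The 4 low libraries were alike but not equal. Conduit sample 3 alone held the highest of their counts for 17 of the 37 genes and the lowest for 8, and it had the fewest member counts in all. It was highest for Myh4 (51), Myh1 (26), Ckm (68), Mb (23), Mylpf (39) and Tnnc2 (42), where injury samples 2 and 3 had at most 13 counts each, and lowest for Neb (215), Pygm (176), Tpm2 (745) and Ttn (156). In the same 4 libraries 9 of the 37 genes had over 100 counts throughout, among them Atp2a2, Tpm2, Ldb3, Mybpc1, Acta1, Eno3, Pygm, Neb and Ttn. Conversely 23 of the 37 genes had at most 60 counts in each of them. At this depth 3 to 7 genes per library were at or under 3 counts in those libraries and 0 in the remaining pair.

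The comparison of conduit with injury asked which transcripts differed between the groups. Every conduit sample had a later labelled day than every injury sample, so treatment and day cannot be told apart. Only batch 2 held samples of both groups, so treatment and batch can hardly be told apart either. Of the 37 genes 32 passed the filter on low counts; Myh2, Myoz1, Myl2, Cacna1s and Ampd1 did not. Their fitted log2 fold changes, conduit over injury, had a median of 3.70 against 0.0017 over all 16478 genes tested, with 27 above 0 and 5 below. The fast genes had a median of 4.10 and the slow genes of -0.03. As an example of the spread, Acta1 was 29.8 ± 41.2 CPM in injury and 738 ± 1264 in conduit (SD, n = 3). None of the 32 passed the threshold (edgeR quasi-likelihood test, Benjamini-Hochberg adjusted p under 0.05), as 0.00607% of all genes did; 0 had an unadjusted p under 0.05, where 2.99% of all genes did and were higher in conduit and 2.36% did and were lower, and limma-voom also called 0. DESeq2 gave an adjusted p to 9 of the 37 genes, 8 slow, 1 shared and 0 fast. It called 0 of those, against 1.19% of its genes, which leaves the fast genes untested there. The libraries of the groups overlapped for all 32, where they did not for 9.63% of all genes (5.41% higher and 4.22% lower in conduit). Nothing is read from these shares, since the same contrast chose the genes. Red-cell genes differed in level between the groups. The 10 on the list summed to 4663 to 5596 CPM in the injury libraries and 531 to 1323 CPM in the conduit libraries. In edgeR 0 of the 10 passed the threshold (lowest adjusted p = 0.0585), whereas DESeq2 called 9 of the 10, all lower in conduit. For all 10 every conduit library lay below every injury library. The part of red-cell genes in the muscle values was not tested.

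The direction rested on 1 library. Without conduit sample 2 the median of the members' log2 fold changes was -1.82 and that of the fast genes -4.20, with all 11 tested fast genes lower in conduit. Without injury sample 1 the fast median was 9.84. Without either library the median was 0.37 over the 28 members still tested, 18 above 0 and 10 below. The fast median was then 0.79 over the 8 fast genes still tested, without Myh1, Myh4 and Tnni2. Leaving out both libraries was a setting chosen after seeing the data. Within batch 2, conduit sample 1 differed from injury sample 3 by a median of 0.26 log2 CPM over the members and by 0.22 over the fast genes. With batch in the fit the medians were 0.40 and 0.31.

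**Figure D5:**
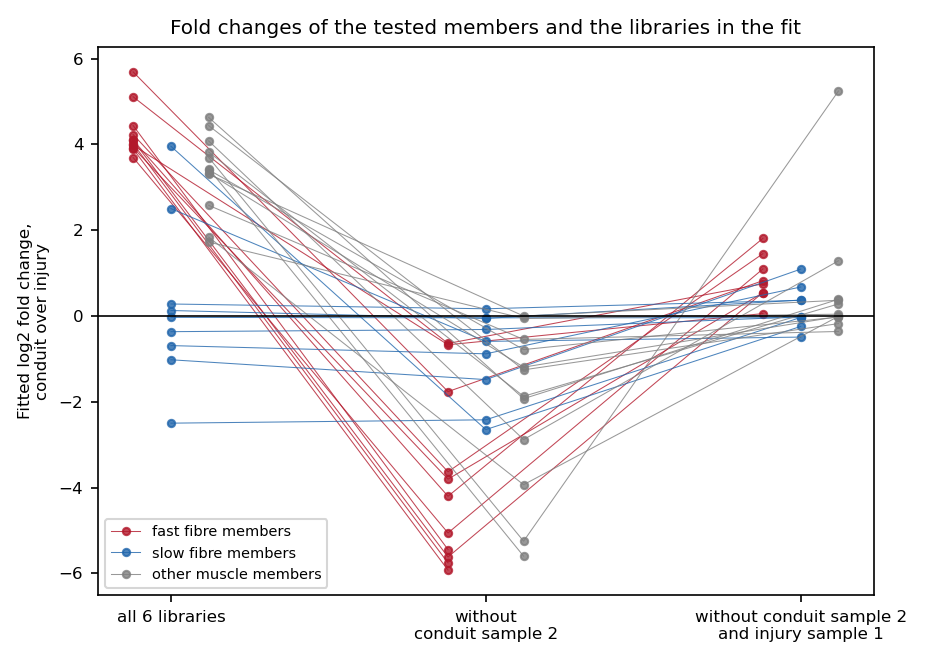
Fitted log2 fold change, conduit over injury, of each tested member with all 6 libraries, without conduit sample 2, and without conduit sample 2 and injury sample 1. The fast genes have medians of 4.10, -4.20 and 0.79 in the 3 fits, over 11, 11 and 8 tested genes. Lines join the values of one gene.

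Other genes of muscle, which are not among the 37, came from 5 lists with 81 genes. Of these 65 were highest in conduit sample 2, and 44 were higher in both conduit sample 2 and injury sample 1 than in any of the other 4 libraries. None of the 59 that were tested passed over all genes (edgeR adjusted p), and limma-voom called 0. DESeq2 gave 38 genes of the 5 lists an adjusted p and called 0 of those. At an unadjusted p under 0.05, 1 of the 59 was higher and another was lower in conduit, no larger a share than the 2.99% and 2.36% over all genes. The higher one was Smpx, a small protein of the muscle cell membrane skeleton, at 589, 458 and 471 counts in injury and 547, 975 and 721 in conduit, and the lower one was Colq, the collagen tail that anchors acetylcholinesterase, at 344, 675 and 619 counts in injury and 230, 291 and 406 in conduit. Smpx was named after its values were seen.

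Of 24 further genes of the sarcomere and Z-disc, 23 were highest in conduit sample 2. Cmya5 had 393, 64 and 55 counts in injury and 88, 7802 and 80 in conduit, and Xirp2, an actin-binding protein, had 127, 66 and 98 in injury and 51, 4888 and 96 in conduit. Myom2, an M-band protein that ties thick filaments together, had 263, 102 and 146 counts in injury and 354, 5478 and 213 in conduit. The filament gene Des had 7349 counts in conduit sample 2 and 177 to 1116 in the others. Of 15 genes of the triad, 13 were highest in conduit sample 2. Pvalb, a calcium buffer of fast fibres and of some sensory neurons, had 4032, 2890 and 3075 counts in injury and 3343, 16315 and 4711 in conduit. Sln, which encodes sarcolipin, a small inhibitor of the calcium pump, did the opposite: it had 370 counts in injury sample 1 and 0 to 2 in the other 5 libraries, conduit sample 2 included. It was named for these values. All 15 energy genes were highest in conduit sample 2, and 8 of them exceeded the highest of the 4 low libraries there by more than 5 times. Ckmt2, the mitochondrial creatine kinase of muscle, had 443, 88 and 170 counts in injury and 102, 5458 and 154 in conduit. Pfkm, the muscle-type phosphofructokinase, differed less and had 14646 to 16416 counts in the other libraries and 20832 there.

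Most regulators of the muscle lineage were scarce, and 9 of the 16 on the list were highest in conduit sample 2. Among the most abundant on the list, Itga7, Mef2d and Cdh15 are also made by glia or neurons and had 6717 to 8271, 2589 to 3038 and 1873 to 3053 counts over the 6 libraries, with conduit sample 2 the lowest for Cdh15. Among the scarce ones, picked after their values were seen, Myf6, the myogenic factor of mature fibres, had 17 counts in injury sample 1, 237 in conduit sample 2 and 0 in the other 4. Myod1 had 10 and 96 counts in that pair and at most 1 elsewhere, and Pax7, which marks muscle stem cells, had 3 and 19 against at most 2. Others did not follow: Pax3, a regulator of muscle precursors, had 15, 18 and 42 counts in injury and 31, 19 and 60 in conduit, and Mymx and Mymk, which act in myoblast fusion, had at most 3 counts in any library. Vgll2, a transcription cofactor of muscle, had 119 counts in conduit sample 2 and 0 in every other library, injury sample 1 included. Developmental and end-plate genes were highest in conduit sample 2 for 5 of 11; Myh8, the perinatal myosin, had 442 and 474 counts in the pair and 127 to 257 in the other 4.

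Other kinds of muscle did not show the pattern as a list. Of 12 cardiac genes 2 were highest in conduit sample 2, while injury sample 1 exceeded the other 4 libraries in counts for 4 of the 12. The defining genes Nkx2-5 and Gata4 had 0 or 1 count in each library. Myl4, a light chain of the atrium and of developing muscle, was 1 of the 2 highest in conduit sample 2. It had 133 counts in injury sample 1, 187 in conduit sample 2 and 33 to 38 in the others. Smooth muscle genes summed to 203 to 453 CPM, and the lowest sums were those of injury sample 1 and conduit sample 3. The highest sum was that of conduit sample 2, with injury sample 2 next at 436 CPM. Of 11 smooth muscle genes 3 were highest in conduit sample 2 and 0 in injury sample 1. Acta2, smooth muscle actin, had 1520 counts in injury sample 1 and 3333 in conduit sample 2, within the 1323 to 3595 of the other 4. Tendon genes summed to 52.4 to 112.8 CPM, and 1 of 7 was highest in conduit sample 2.

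The genes outside the list whose profiles over the 6 libraries were most like the mean profile of the 32 tested members included Cmya5, Adss1, Hrc, Ckmt2, Tmod4, Ky, Xirp2, Perm1 and Des, out of 13393 genes whose log2 CPM averaged 1 or more. Likeness was the root mean square difference of log2 CPM after centring each gene on its mean. It was 0.53 for Cmya5 and 1.36 for Des, against a median of 2.66 over those genes and of 1.60 over the members themselves. Tmod4, Ky and Perm1 were on no list used here. Tmod4, which caps thin filaments, had 174, 52 and 58 counts in injury and 75, 1375 and 99 in conduit. Ky had 408, 134 and 63 counts in injury and 100, 1493 and 134 in conduit.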

How the data were processed

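Per the labels' protocols, libraries were made with a VAHTS Universal V10 kit from TRIzol-extracted RNA. The build mRatBN7.2 and the tools HISAT2, HTSeq, fastp, SAMtools and DESeq2 are named, with no roles, in the submitters' processing notes. Versions, annotation and strand setting were not given in the sources used here, so overlapping genes on opposite strands may share reads. The deposited count table holds unscaled whole reads. The deposited FPKM values gave the same gene length in every library (within 0.1%, 15192 of 15192 genes checked), so they add no independent measurement and were used to compare levels between genes.

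The count fit used R 4.3.3 and edgeR 4.0.16, with filterByExpr (minimum 10 counts) and TMM. It was a robust quasi-likelihood test of 3 against 3 libraries with no covariate. Benjamini-Hochberg adjustment ran over all 16478 genes, with a threshold of 0.05. The fit was also run on simulated data, in which no library stood apart. That simulation does not cover a spread such as that of the muscle genes. DESeq2 1.42.0, limma 3.58.1, another scaling and filter, a replicate block, a batch term and leaving out each library were alternatives. Log2 CPM used a prior count of 2. P-values measure only the spread between these samples, which may be technical. The members and lists were chosen with earlier results of these data known. Of the other lists the 4 most abundant genes could be named, along with the 10 most similar profiles, and some of these are not reported here; Smpx, Sln, Fshb, Nkx2-5, Gata4 and the scarce regulators were named outside that rule.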

Additional observations from a re-analysis of the deposited data

How the results depend on the processing

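The counts of members and of other muscle genes called were 0 under every alternative that gave a test, though DESeq2 gave no fast gene an adjusted p. The members' median stayed above 0 in all but 1, the fit without conduit sample 2. With each library left out in turn the median of the members ranged from -1.82 to 5.86, that of the fast genes from -4.20 to 9.84, that of the slow genes from -0.59 to 0.56, and the number of genes called over the whole table from 0 (without conduit sample 3) to 38 (without injury sample 1), with 35 without injury sample 3 and 6 without conduit sample 1. The table-wide count of 1 became 6 with every gene of at least 1 count, 209 with DESeq2, 0 with the replicate number as a block, 0 with a batch term and 13 without injury sample 1 and conduit sample 2; the cause was not tested. The members' median was 1.54 with limma-voom, 0.91 with the replicate block, 0.40 with a batch term and 0.26 within batch 2. It was 3.69 with RLE scaling and 3.70 with muscle genes left out of the library sizes. The labels give no pairing of same-numbered samples. Deviations of these samples from their group means correlated at -0.42, 0.06 and -0.07. With 3 libraries per group such values can neither show nor exclude a pairing. The log2 ratio of fast to slow levels in injury sample 3 was -0.55 as a median over the 9 partner pairs, against -5.20 as a ratio of sums, in which Atp2a2 weighs most, and in conduit sample 3 it turned from -3.60 to 0.26. Levels under about 3 counts limit the slow and fast ratios of the 4 low libraries.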
